A study of Mus musculus with 10 samples.

Results

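The 37 genes described here mark macrophages, the phagocytes that take up dying cells, debris and antibody-coated particles, and they were read from the deposited count table by exact symbol match, 37 of 55385 genes. They fell into 12 general macrophage genes, 6 Fc receptor and adaptor genes, 11 genes of resident-like macrophages and 8 genes of lipid-associated macrophages. RNA sequencing was done on 10 mouse libraries, 5 labelled IL6 shRNA1 and 5 labelled control shRNA. Both groups came from an ovarian tumour line with mutations of Arid1a and Pik3ca, which the titles call APV245 and the design text calls APC245. The group labelled IL6 shRNA1 has the genotype label IL6 knockdown and carried a lentiviral hairpin against Il6. The control group carried a non-mammalian hairpin in pLKO.1-puro. By their labels, the samples had no further treatment and belonged to 1 batch. The design text describes tumours grown under the skin, whereas the growth protocol describes the line in DMEM culture, and no host strain, age or number of animals is given. The labels do not say whether the transduced cells were a pool or a clone. A tumour grown from such cells also holds host cells, which do not carry the hairpin.

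Macrophages depend on the growth factors CSF-1 and IL-34, which act through the receptor tyrosine kinase encoded by Csf1r, and on the transcription factor PU.1, encoded by Spi1. They bind immune complexes through Fc gamma receptors, which signal through adaptors with tyrosine motifs (ITAMs). Resident-like macrophages are known for scavenger receptors such as CD163 and the mannose receptor, while lipid-associated macrophages, found in fat, atheroma and tumours, are known for TREM2, apolipoprotein E and lysosomal proteases. Several of these genes are also made by other cells: Apoe, Ctsb, Ctsd, Csf1, Hmox1 and Maf are expressed in many cell types, and Lyve1 and Stab1 also mark lymphatic or sinusoidal endothelium.

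The label IL6 shRNA1 did not go with less Il6 mRNA. Libraries with that label held 1.73 ± 0.406 CPM against 1.26 ± 0.639 CPM in the control libraries (mean ± SD, n = 5 each here and below). Its log2 fold change was 0.44 ± 0.37 (SE) with an adjusted p of 0.436 by edgeR's quasi-likelihood test, on 9 to 48 counts per library. CPM are counts scaled to the library total with TMM factors, and fold changes are those of libraries labelled IL6 shRNA1 over control. Library totals lay between 17905397 and 22682346 counts. Libraries stood apart on the first principal component of all genes (54.3% of the variance): library 5 labelled IL6 shRNA1 lay at one end and control libraries 2 and 5 at the other. Skeletal muscle genes (Ckm, Acta1 and Myh4 together) reached 6990 CPM in library 5 labelled IL6 shRNA1, against 23.5 to 1545 CPM in the other 4 of its group and 9.67 to 763 CPM in the control libraries. The skin keratin genes Krt5 and Krt14 were also highest in that library, at 209 and 341 CPM, against at most 21.3 and 99.3 CPM in the other 9, and the part of muscle and skin in the macrophage values was not tested. The labels do not say whether the 5 samples of a group are separate tumours or cultures, so p-values measure the spread between these samples, which may be technical.

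Macrophage genes were present in every library and stood higher in the libraries labelled IL6 shRNA1. Of the 34 members with enough counts to test, 19 rose and 0 fell at an adjusted p under 0.05, against 5.62% of all 15064 genes tested that rose and 6.16% that fell. At an unadjusted p under 0.05, 31 members were higher and 1 (Maf) was lower, against 15.5% higher among all genes. The share of all genes lower at that p was not computed. DESeq2 and limma voom also called 0 members lower. The fold change was positive for 32 of 34 members, and the median log2 fold change was 0.88, against -0.01 for all genes tested. In 14 members each library labelled IL6 shRNA1 lay above each control library, a pattern that 4.81% of all genes tested showed, and in 0 members the reverse held, against 6.13% of all genes. The remaining 3 members (Timd4, Vsig4 and Marco) were too low to test. In RNA from mixed tissue, a difference in the number of cells of a type and a difference in RNA per cell cannot be told apart.

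The rise was not the same in all libraries. Control library 2 held the lowest level of all 10 libraries for 26 of the 34 tested members, and control library 5 was among the lowest pair for 28. Library 5 labelled IL6 shRNA1 held the highest level for 19 members and library 4 for 12. Library 1 labelled IL6 shRNA1 was the lowest of its own group for 26 members, and control library 1 the highest of its group for 20, so these libraries sat close together. The map of centred levels shows these columns.

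**Figure D1:**
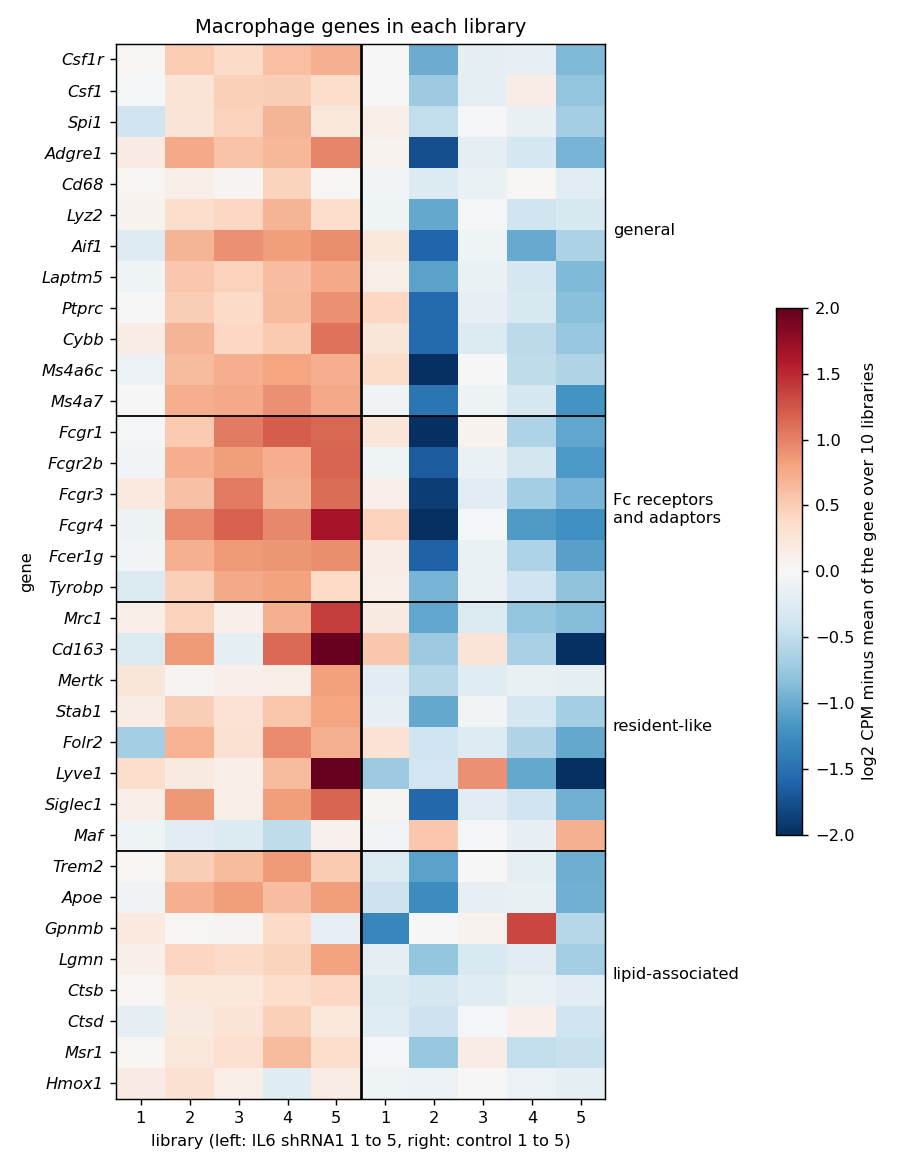
Level of each tested macrophage gene (vertical axis, by class) in each of the 10 libraries (horizontal axis), as log2 CPM centred on the mean of the gene, with colours ending at 2 either side of 0. Control library 2 is the darkest blue column, and library 5 labelled IL6 shRNA1 is red for nearly all genes. Maf is below its mean in 4 of the 5 libraries labelled IL6 shRNA1, and of the control libraries only 2 and 5 lie above it.

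Per length of transcript, the members spanned a wide range of levels. The order of mean FPKM (counts scaled by gene length and library total, as deposited) began with Apoe at 635 and Lyz2 at 412, followed by Ctsb at 165, Lgmn at 159 and Ctsd at 142. The library ranges of Apoe and Lyz2 overlapped, 224 to 1031 and 182 to 654 FPKM, as did those of the 3 proteases. The adaptors Tyrobp and Fcer1g came next at 90.6 and 85.1 FPKM, above Cd68 at 75.5, Laptm5 at 56.4 and Csf1r at 37.2. Among resident-like genes, Maf had 18.6 FPKM and Stab1 9.76, while Mrc1, Lyve1 and Siglec1 lay at 4.35, 3.31 and 2.68 FPKM. Cd163, a scavenger receptor for haemoglobin complexes, was at 0.459 FPKM, and Timd4 and Marco were below it.

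**Figure D2:**
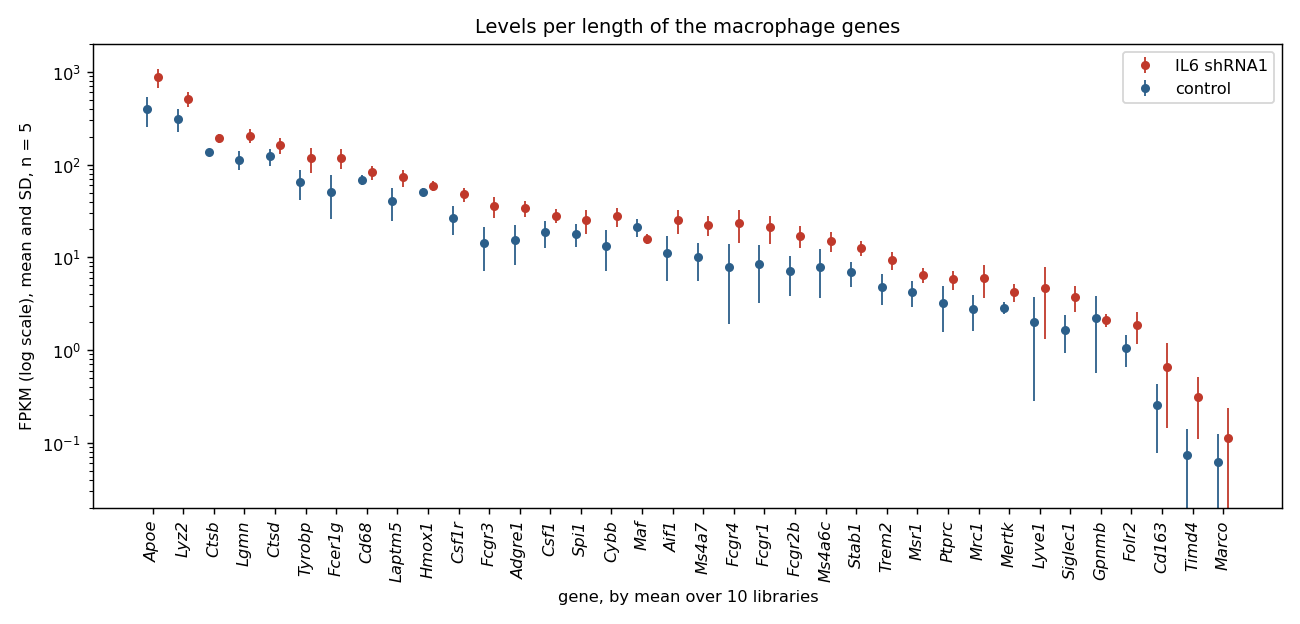
Mean FPKM (vertical log axis) of the macrophage genes in the libraries labelled IL6 shRNA1 and in the control libraries, with bars for the SD (n = 5 each), ordered by the mean over all 10 libraries. Apoe and Lyz2 lead, and the resident-like genes Cd163, Timd4 and Marco stand at the low end.

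Promoter sequences of 27 of the 37 members were found in RefSeq (GRCm38.p6), as windows of 300 bases from 250 before to 50 after each gene's start. The core GAGGAAG, the purine-rich element bound by PU.1, was searched on both strands. It occurred in the promoters of 7 of the 27 genes (25.9%: Fcgr1, Fcgr3, Fcgr4, Laptm5, Marco, Mrc1 and Trem2), against 15.1% of all 26742 genes with a window. Within the 60 bases before the start it occurred in 6 of the 27 genes (22.2%) against 3.50% of all genes, but that shorter window was chosen after the positions had been seen. The 4 stretches below lie just upstream of annotated exons and are shown because in these receptor genes, from 3 of the 4 classes, the core lies within 60 bases of the start. Capitals mark the core as it reads on the gene's strand, which is its reverse complement.
Fcgr4, chr1:171018800-171018919, plus strand: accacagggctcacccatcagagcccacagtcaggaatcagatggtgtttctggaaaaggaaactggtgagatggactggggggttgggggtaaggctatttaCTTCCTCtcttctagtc
Mrc1, chr2:14229272-14229391, plus strand: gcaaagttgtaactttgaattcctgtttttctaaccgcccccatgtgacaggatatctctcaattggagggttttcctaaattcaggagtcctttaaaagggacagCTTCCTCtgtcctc
Fcgr1, chr3:96293970-96294089, minus strand: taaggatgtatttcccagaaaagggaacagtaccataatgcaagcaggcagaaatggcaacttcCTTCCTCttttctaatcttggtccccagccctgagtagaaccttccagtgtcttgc
Trem2, chr17:48346281-48346400, plus strand: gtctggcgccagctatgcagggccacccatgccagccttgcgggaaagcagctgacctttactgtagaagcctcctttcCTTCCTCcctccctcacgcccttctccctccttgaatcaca
Counted from the RefSeq start, the core began at position -23 in Fcgr4, -36 in Mrc1, -56 in Fcgr1 and -41 in Trem2. Of these genes, Mrc1 and Trem2 were called higher and Fcgr4 and Fcgr1 were not. Fcgr3 and Laptm5, which also have the core within 60 bases of a start but are not shown, were called higher. The pattern TGANTCA, in which N is any base, is a loose form of the AP-1 site. This pattern was found in 6 of the 27 promoters (22.2%: Cd68, Cybb, Folr2, Gpnmb, Ms4a7 and Trem2) against 8.97% of all genes. TCACGTGA, the E-box of the TFE family that controls lysosomal genes, was found in 1 (Ctsd) against 1.14%, and TATAAA in 4 against 15.6%. These matches are descriptions of sequence and show no binding.

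The growth factor receptor gene Csf1r rose, while its ligand Csf1 and the lineage factor Spi1 were higher in mean without passing the test. Csf1r (ENSMUSG00000024621.16, chromosome 18, 61100598 to 61132149; positions here and below are those of the deposited table, in mm10) encodes the CSF-1 receptor. It held 205, 284, 261, 301 and 327 CPM in libraries 1 to 5 labelled IL6 shRNA1 and 198, 100.2, 173, 178 and 108 CPM in control libraries 1 to 5. The groups did not overlap, although library 1 labelled IL6 shRNA1 and control library 1 differed by little. The means were 276 ± 46.2 and 151.5 ± 44.5 CPM, and the log2 fold change was 0.86 ± 0.20 (SE; edgeR adjusted p = 0.0247). Csf1 (ENSMUSG00000014599.10, chromosome 3, 107741048 to 107760469) encodes the ligand CSF-1 and stood at 116, 143, 165, 166 and 151 CPM against 117, 71.6, 104, 131 and 68.1 CPM in control. The first library labelled IL6 shRNA1 lay below the highest control libraries, and the log2 fold change was 0.59 ± 0.19 (adjusted p = 0.0625). Spi1 (ENSMUSG00000002111.8, chromosome 2, 91082390 to 91115756) had 41.9, 66, 75.7, 88.9 and 64.7 CPM in the libraries labelled IL6 shRNA1 and 60.1, 39.2, 54.5, 49.9 and 34.2 CPM in control, with overlap of the groups and a log2 fold change of 0.50 ± 0.20 (adjusted p = 0.125). Exons of Csf1r overlap those of Hmgxb3 on the opposite strand, and the strand setting of the counting is not given. Hmgxb3 had 43.5 CPM under the label IL6 shRNA1 and 50.1 CPM in control, a log2 fold change of -0.20.

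Of the 12 general macrophage genes 6 rose and 0 fell, with all 12 fold changes positive and a median of 0.87 on the log2 scale. Among all genes tested, 5.62% rose, 6.16% fell and 47.9% had a positive fold change. Adgre1 (ENSMUSG00000004730.15, chromosome 17, 57358691 to 57483527), the gene of the surface marker F4/80, rose. Its levels were 77.5, 118, 103, 109.7 and 136 CPM in the libraries labelled IL6 shRNA1 and 72.7, 20.6, 61.1, 54.3 and 36.5 CPM in control, so the lowest labelled library lay just above control library 1. On the log2 scale the fold change was 1.15 ± 0.30 (adjusted p = 0.0372). Lyz2 (ENSMUSG00000069516.8, chromosome 10, 117277331 to 117282321), which encodes lysozyme of myeloid cells, was at 538, 655, 686, 821 and 654 CPM against 487, 252, 502, 390.3 and 412 CPM, with no overlap. It rose by 0.71 ± 0.18 on the log2 scale (adjusted p = 0.0274). Of its 50-base stretches 15.4% also occur in Lyz1, which was at 0.749 and 0.636 CPM. Laptm5 (ENSMUSG00000028581.17, chromosome 4, 130913125 to 130936141), a lysosomal protein of blood cells, had 185, 286, 269, 300.3 and 331 CPM against 215, 93.4, 179.8, 156 and 107 CPM. Control library 1 lay above library 1 labelled IL6 shRNA1, and the log2 fold change was 0.87 ± 0.24 (adjusted p = 0.0415).

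Cybb and Ms4a7 completed the general genes that rose. Cybb (ENSMUSG00000015340.10, chromosome X, 9435252 to 9487771), the catalytic subunit of the phagocyte NADPH oxidase, had 117, 169, 141, 152 and 224 CPM in the libraries labelled IL6 shRNA1. In the control libraries it had 124, 35.9, 87.7, 73.7 and 62.8 CPM, and control library 1 lay above library 1 labelled IL6 shRNA1. The fitted log2 fold change was 1.06 ± 0.30 (adjusted p = 0.0454). Ms4a7 (ENSMUSG00000024672.11, chromosome 19, 11321039 to 11336146), a membrane protein of macrophages, held 62.7, 104, 106, 118 and 106 CPM against 60.1, 22.8, 58.6, 49.8 and 27.5 CPM. The groups did not overlap, but library 1 labelled IL6 shRNA1 was far below the other 4 of its group. Its log2 fold change was 1.18 ± 0.29 (adjusted p = 0.0292).

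Ptprc (ENSMUSG00000026395.16, chromosome 1, 138062861 to 138175708), the pan-leukocyte gene of CD45, did not pass the test. It held 74.6, 104, 96.6, 115 and 140.3 CPM in the libraries labelled IL6 shRNA1 and 98.8, 25.3, 66.4, 59.6 and 41.5 CPM in control. Control library 1 lay above libraries 1 and 3 labelled IL6 shRNA1 and control library 2 was the lowest, and the log2 fold change was 0.86 ± 0.32 (95% interval 0.15 to 1.57; adjusted p = 0.102). The lysosomal membrane gene Cd68 had a small difference, 104 ± 13.8 CPM against 85.8 ± 7.19 CPM, with groups that met at 95.3 CPM without overlap and an adjusted p of 0.0806. Aif1, which encodes the calcium-binding protein IBA1, had a log2 fold change of 1.16 ± 0.34 (adjusted p = 0.0545) and Ms4a6c, another membrane protein of macrophages, one of 0.94 ± 0.36 (adjusted p = 0.111). In both, library 1 labelled IL6 shRNA1 fell inside the control range. Ms4a6c shares 10.5% of its 50-base stretches with other genes, mostly Ms4a6b, so its counts are uncertain. With library 2, 3, 4 or 5 labelled IL6 shRNA1 left out in turn, or control library 5, edgeR called 0 of the 12 general genes, and without control library 4 it called 3. Without library 1 labelled IL6 shRNA1 it called 10.

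Fc receptor and adaptor genes had the largest median log2 fold change of the 4 classes, 1.31, with 4 of 6 called higher, 0 lower and all 6 positive. Over all genes tested, 5.62% were called higher and 6.16% lower. Fcgr2b, Fcgr3, Fcgr4 and Fcer1g lie on chromosome 1, where 268 of 917 tested genes were called higher. Fcgr2b (ENSMUSG00000026656.15, chromosome 1, 170958617 to 170976547), the inhibitory Fc gamma receptor, had levels of 57.9, 98.9, 107, 98.8 and 133 CPM under the label IL6 shRNA1 and 56.6, 18.9, 54.6, 46.3 and 27 CPM in control. The groups were separated only by the small gap between the 2 libraries numbered 1. The log2 fold change was 1.29 ± 0.32 (adjusted p = 0.0313). Fcgr3 (ENSMUSG00000059498.13, chromosome 1, 171051174 to 171064935), an activating receptor of low affinity, held 41.4, 54.6, 74.5, 58.1 and 78.2 CPM against 39, 9.79, 31.1, 22.6 and 18.9 CPM, again without overlap. It rose by 1.33 ± 0.33 on the log2 scale (adjusted p = 0.03). Fcgr3 shares 9.58% of its 50-base stretches with Fcgr2b and Fcgr2b shares 4.38% with other genes, so a small part of their counts could be split between them.

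The activating receptors Fcgr4 and Fcgr1 had fold changes as large but wider spread. Fcgr4 (ENSMUSG00000059089.4, chromosome 1, 171018920 to 171029761), a receptor of intermediate affinity, had 13.3, 27.4, 32.4, 27.7 and 45 CPM in the libraries labelled IL6 shRNA1 and 19.7, 2.14, 14, 6.52 and 6.11 CPM in control. Library 1 labelled IL6 shRNA1 lay below control libraries 1 and 3, and the log2 fold change was 1.58 ± 0.52 (95% interval 0.42 to 2.74; adjusted p = 0.0755). Fcgr1 (ENSMUSG00000015947.10, chromosome 3, 96282909 to 96293969), the receptor of high affinity, was at 29.4, 43.5, 62, 69.9 and 66.8 CPM against 35.9, 5.21, 31.9, 19.7 and 14.7 CPM. Its groups overlapped in the same way, and the log2 fold change was 1.34 ± 0.45 (95% interval 0.33 to 2.34; adjusted p = 0.0791).

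The 2 signalling adaptors rose. Fcer1g (ENSMUSG00000058715.11, chromosome 1, 171229572 to 171234365), the common gamma chain that activating Fc receptors need at the surface, held 61.5, 104, 114, 117 and 120.4 CPM in the libraries labelled IL6 shRNA1 and 70.1, 20.7, 57.6, 41.6 and 29.8 CPM in control. Library 1 labelled IL6 shRNA1 lay below control library 1 and the other 4 above all control libraries. Its log2 fold change was 1.23 ± 0.32 (adjusted p = 0.0369). Tyrobp (ENSMUSG00000030579.10, chromosome 7, 30413760 to 30417585), which encodes DAP12, the adaptor of TREM2, had 45.2, 76.7, 93.9, 96.6 and 72.6 CPM against 60.5, 29.2, 50.3, 42 and 31.7 CPM. Its level in library 1 labelled IL6 shRNA1 was inside the control range, and the log2 fold change was 0.85 ± 0.24, with an adjusted p of 0.0496 at the edge of the threshold. With library 2, 3, 4 or 5 labelled IL6 shRNA1 left out in turn, or control library 5, edgeR called 0 of the 6 genes, without control library 4 it called 1 and without control library 2 it called 2. Fcgr2b, Fcgr3, Fcgr4, Fcer1g and Ptprc lie on chromosome 1, where 805 of 917 tested genes had a positive fold change, 268 were called higher and 1 lower, with a median of 0.32. The part of the chromosome in these fold changes was not tested.

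Resident-like genes were uneven: of the 8 tested, 4 rose, 0 fell, 7 were positive and the median log2 fold change was 1.00, while 3 of the 11 were near or at 0 counts. Beside these counts, 5.62% of all genes tested rose and 6.16% fell. Mrc1 (ENSMUSG00000026712.3, chromosome 2, 14229392 to 14332057), the mannose receptor CD206, had 26.7, 33.4, 26, 39.9 and 63.6 CPM in the libraries labelled IL6 shRNA1 and 27.7, 11.9, 19.97, 14.2 and 13.4 CPM in control. Library 5 labelled IL6 shRNA1 stood well above all others, and control library 1 lay above libraries 1 and 3 labelled IL6 shRNA1. On the log2 scale the fold change was 1.12 ± 0.30 (adjusted p = 0.0417). Stab1 (ENSMUSG00000042286.13, chromosome 14, 31139013 to 31168641), the scavenger receptor stabilin-1, held 103, 132, 114, 138 and 162 CPM against 83.6, 46.2, 89.7, 73.4 and 58.2 CPM with no overlap. It rose by 0.89 ± 0.18 on the log2 scale (adjusted p = 0.015). Its exons overlap those of Nt5dc2 on the opposite strand, which fell from 524 CPM in control to 325 CPM, a log2 fold change of -0.69 (adjusted p = 0.0077).

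Siglec1 and Mertk rose as well. Siglec1 (ENSMUSG00000027322.11, chromosome 2, 131069220 to 131086765), the sialic acid receptor CD169, had 18.2, 30.2, 17.9, 29.4 and 36.9 CPM in the libraries labelled IL6 shRNA1. Its control levels were 17.2, 5.6, 14.1, 12.5 and 8.48 CPM, so libraries 1 and 3 labelled IL6 shRNA1 stood just above control library 1. The fitted log2 fold change was 1.19 ± 0.31 (adjusted p = 0.0356). Mertk (ENSMUSG00000014361.5, chromosome 2, 128698956 to 128802894), the receptor kinase through which macrophages take up apoptotic cells, held 17.7, 15.5, 15.9, 16.5 and 26.3 CPM against 12.9, 10.1, 12.6, 13.4 and 13.1 CPM. The groups did not overlap, and library 5 labelled IL6 shRNA1 was far above the other 4 of its group. The log2 fold change was 0.56 ± 0.15 (adjusted p = 0.0381).

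Cd163, Lyve1, Folr2 and Maf did not pass the test. Cd163 (ENSMUSG00000008845.9, chromosome 6, 124304656 to 124330527) was low, with 1.39, 3.06, 1.47, 3.7 and 8.57 CPM in libraries labelled IL6 shRNA1 and 2.46, 1.02, 2.02, 1.09 and 0.178 CPM in control, on 3 to 162 counts. Library 5 labelled IL6 shRNA1 held the most and control library 5 the least, and the log2 fold change was 1.40 ± 0.63 (95% interval 0.01 to 2.80; adjusted p = 0.158), or 0.81 without library 5 labelled IL6 shRNA1. Lyve1 (ENSMUSG00000030787.4, chromosome 7, 110850607 to 110863239), a hyaluronan receptor, was at 9.25, 8.15, 7.92, 11.2 and 31.5 CPM against 4.37, 5.55, 13.7, 3.57 and 1.54 CPM. Library 5 labelled IL6 shRNA1 lay far above the rest, control library 3 came second, and the log2 fold change was 1.23 ± 0.58 (95% interval -0.06 to 2.54; adjusted p = 0.179). It was 0.66 without library 5 labelled IL6 shRNA1 and 1.86 without control library 3. The lymphatic endothelial genes Prox1 and Ccl21a were also highest in library 5 labelled IL6 shRNA1, at 14.5 CPM and 55.4 CPM, against 4.54 to 5.26 CPM and 9.57 to 24.5 CPM in the other 4 of its group. The 5 lymphatic markers had a median log2 fold change of 1.28, with 0 of 5 called by edgeR. At an unadjusted p under 0.05, 4 were higher, against 15.5% of all genes tested. Stab1 and Mrc1 were, like Lyve1, highest in library 5 labelled IL6 shRNA1. The part of these markers in the Lyve1, Stab1 and Mrc1 values was not tested.

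Folr2, the folate receptor of perivascular and resident macrophages, had 2.88 ± 1.03 CPM against 1.63 ± 0.557 CPM and a log2 fold change of 0.81 ± 0.32 (adjusted p = 0.113). Maf (ENSMUSG00000055435.6, chromosome 8, 115682942 to 115707794), a transcription factor of mature macrophages that other cells also express, had a negative fold change. It held 141, 129, 124, 105 and 159 CPM in the libraries labelled IL6 shRNA1 and 144, 218, 147, 134 and 244 CPM in control. Control libraries 2 and 5, the lowest for most macrophage genes, were the highest for Maf, and the log2 fold change was -0.43 ± 0.18 (adjusted p = 0.135). Vsig4, the complement receptor of resident macrophages, had 0 counts in all 10 libraries, where 3 counts would be 0.132 to 0.168 CPM. Timd4, a phosphatidylserine receptor of resident macrophages, had 0.214, 0.198, 0.928, 1.02 and 0.953 CPM against 0.382, 0, 0.129, 0.103 and 0.178 CPM, on 0 to 21 counts. Marco, a collagen-like scavenger receptor, had 0 to 12 counts, and neither was tested. By edgeR, leaving out a library left 1 to 5 resident-like genes called, with 1 called without library 2 or 4 labelled IL6 shRNA1 and without control library 2, 3, 4 or 5, 2 called without library 3 or 5 labelled IL6 shRNA1, and 5 called without library 1 labelled IL6 shRNA1.

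Lipid-associated genes held the most abundant members. Of the 8, 5 rose, 0 fell and 7 were positive, with a median log2 fold change of 0.55, the smallest of the 4 classes. The shares over all genes tested were 5.62% that rose and 6.16% that fell. Trem2 (ENSMUSG00000023992.14, chromosome 17, 48346401 to 48354147), a lipid-sensing receptor that pairs with DAP12, held 32.9, 44.8, 49.7, 57.5 and 46.1 CPM in the libraries labelled IL6 shRNA1 and 26.2, 15.3, 32, 27.9 and 16.3 CPM in control. The groups did not overlap, with library 1 labelled IL6 shRNA1 next to control library 3. Its log2 fold change was 0.97 ± 0.22 (adjusted p = 0.0214). Apoe (ENSMUSG00000002985.16, chromosome 7, 19696109 to 19699188), which encodes the lipid carrier apolipoprotein E, was at 1153, 1970.4, 2156, 1857 and 2160.1 CPM against 906, 504, 1076, 1089 and 618 CPM. Library 1 labelled IL6 shRNA1 sat just above control libraries 3 and 4, and the other 4 far above them. Apoe rose by 1.15 ± 0.24 on the log2 scale (adjusted p = 0.0169), from a mean of 839 ± 267 CPM in control to 1859 ± 415 CPM.

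The lysosomal proteases Lgmn and Ctsb rose with smaller fold changes and smaller errors than Trem2 and Apoe. Lgmn (ENSMUSG00000021190.14, chromosome 12, 102394084 to 102439813), the asparaginyl protease legumain, held 374, 467, 456, 476 and 607 CPM in the libraries labelled IL6 shRNA1 and 304, 204, 282, 302 and 214 CPM in control. No library of either group reached into the other. On the log2 scale the fold change was 0.87 ± 0.15 (95% interval 0.54 to 1.2; adjusted p = 0.00697). Ctsb (ENSMUSG00000021939.8, chromosome 14, 63122462 to 63145923), cathepsin B, had 1008, 1139, 1138, 1251.5 and 1307 CPM against 807, 772, 827, 899.9 and 840.4 CPM. The control libraries lay close together and all below the other group, and the log2 fold change was 0.49 ± 0.08 (95% interval 0.32 to 0.67; adjusted p = 0.00483). Exons of Ctsb overlap those of Fdft1 on the opposite strand, which was at 70.7 and 70.4 CPM. Ctsd, cathepsin D, had 377 ± 61.4 CPM against 287 ± 46.4 CPM (log2 fold change 0.39 ± 0.13, adjusted p = 0.079), and 32.4% of its 50-base stretches are shared with the overlapping model Gm49369.

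Msr1 rose, and Gpnmb and Hmox1 did not pass the test. Msr1 (ENSMUSG00000025044.16, chromosome 8, 39581685 to 39642673), the scavenger receptor for modified lipoproteins, had 33.2, 38, 40.3, 49.8 and 41.2 CPM in the libraries labelled IL6 shRNA1 and 31.9, 19.1, 35.9, 22.9 and 23.8 CPM in control. Control library 3 lay above library 1 labelled IL6 shRNA1, and the log2 fold change was 0.60 ± 0.17 (adjusted p = 0.0456). Gpnmb (ENSMUSG00000029816.10, chromosome 6, 49036546 to 49070929), a lysosomal glycoprotein of foamy macrophages, held 14.5, 12.9, 13.2, 16.6 and 11.4 CPM against 5.13, 12.9, 13.4, 32.1 and 8.54 CPM. The libraries labelled IL6 shRNA1 lay close together, whereas control library 4 was the highest of all 10 and control library 1 the lowest. Its log2 fold change was -0.07 ± 0.41 (95% interval -0.97 to 0.83; adjusted p = 0.932), and without control library 4 it was 0.46. Gpnmb and Cd163 lie on chromosome 6, where 232 of 797 tested genes had a positive fold change and the median was -0.23, and the part of the chromosome was not tested. Hmox1, haem oxygenase, had 104 ± 13.8 CPM against 89.8 ± 4.3 CPM (log2 fold change 0.21 ± 0.09, adjusted p = 0.142). The plots of single genes show Gpnmb and Maf beside genes that rose.

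**Figure D3:**
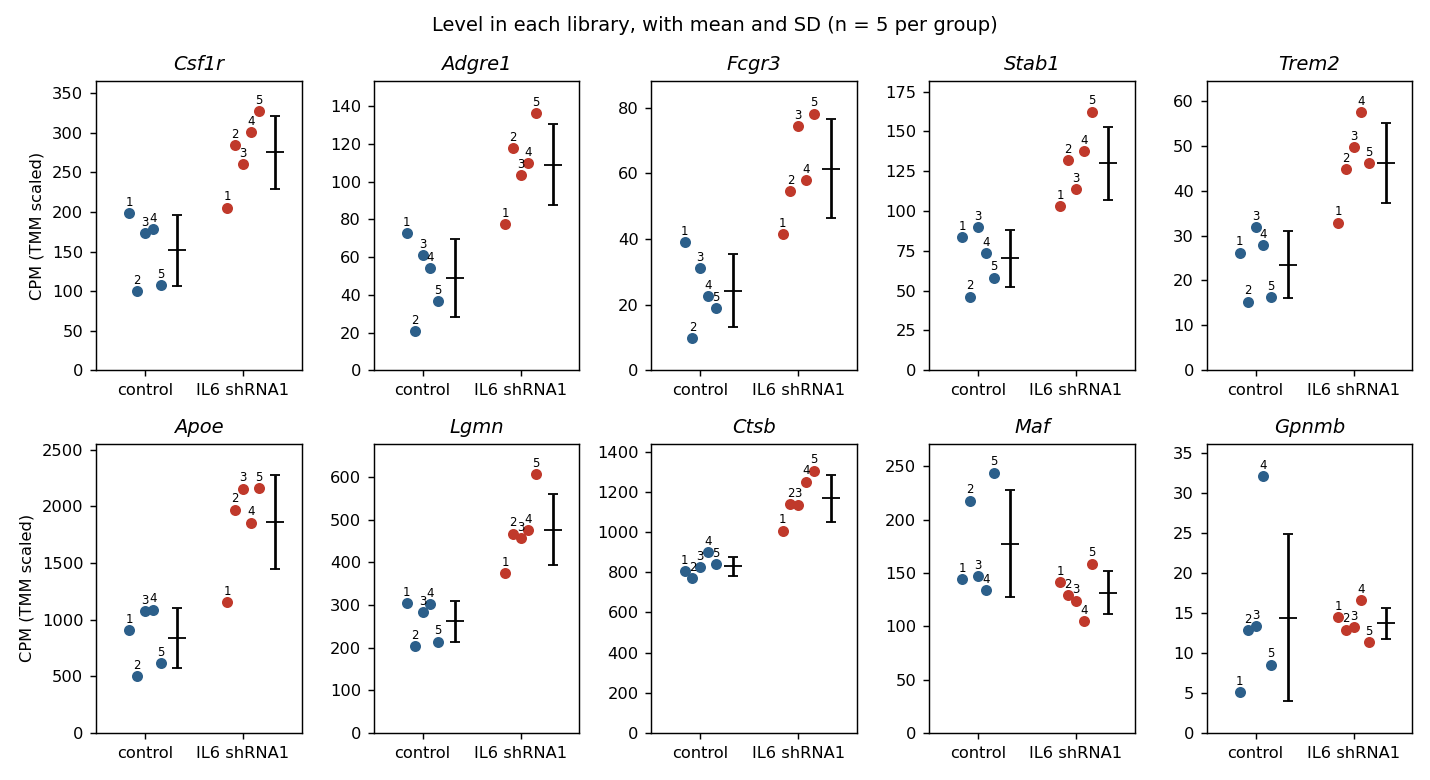
CPM (vertical axes, from 0) of 10 macrophage genes in each control library and each library labelled IL6 shRNA1; numbers beside points are library numbers and bars give the mean and SD (n = 5 per group). The groups separate for the 8 genes from Csf1r to Ctsb, Maf is high in control libraries 2 and 5, and Gpnmb is high in control library 4. The 8 genes are from the 14 of 34 tested members whose groups separated this way, as did 4.81% of all genes tested.

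**Figure D4:**
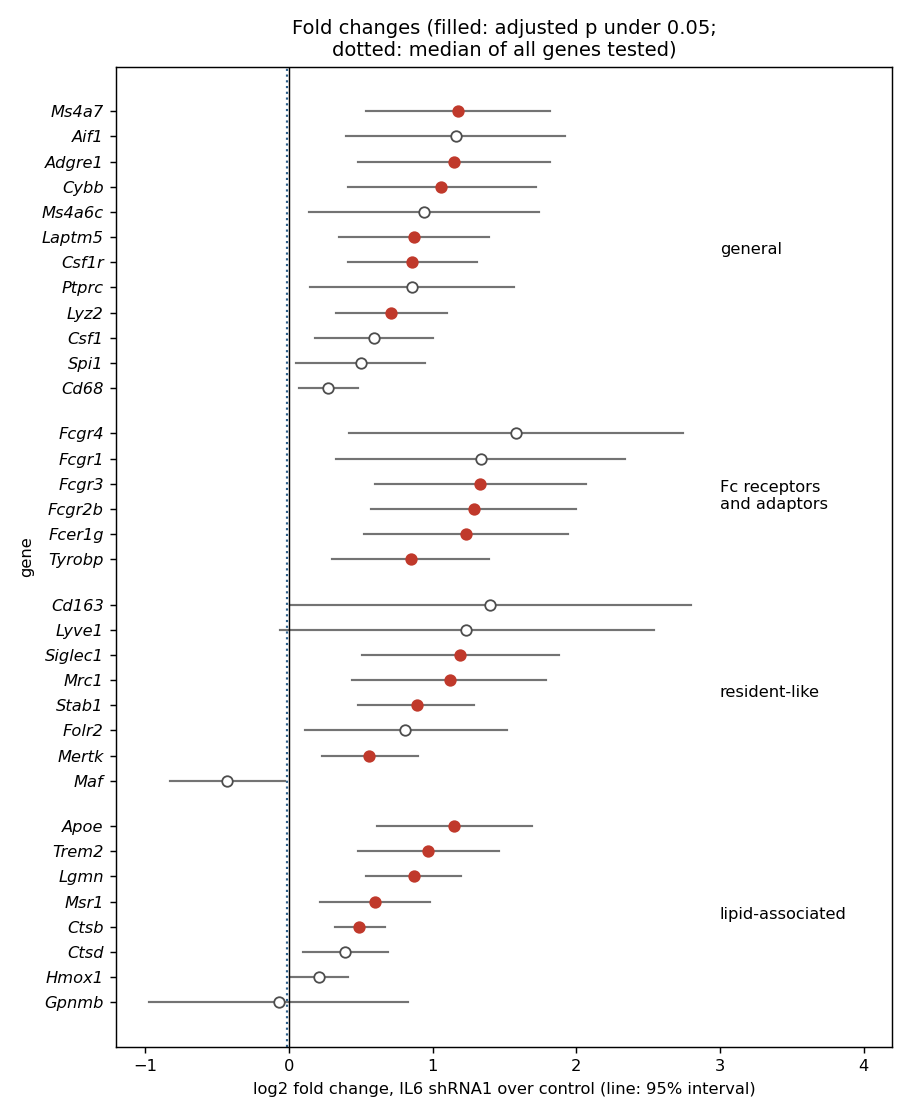
Log2 fold change of each tested macrophage gene, libraries labelled IL6 shRNA1 over control (horizontal axis), with its 95% interval, by class. Filled points passed an adjusted p under 0.05, and 32 of 34 points lie right of 0, with Maf at -0.43 and Gpnmb at -0.07.

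The classes were compared within each library by a score, the average of the centred log2 CPM of its tested members. The Fc receptor score ran from -0.06 in library 1 labelled IL6 shRNA1 to 1.06 in library 5, and in control from -1.89 in library 2 to 0.17 in library 1. General genes ran from -0.04 to 0.66 in the libraries labelled IL6 shRNA1 and from -1.21 to 0.11 in control. Both classes thus had overlapping groups, through the libraries numbered 1. The resident-like score was highest in library 5 labelled IL6 shRNA1, at 1.18, and lowest in control library 5, at -1.06, and its groups overlapped narrowly. In the control group the lipid-associated score lay between -0.59 and 0.02, and in the libraries labelled IL6 shRNA1 between 0.04 and 0.44, so its groups did not overlap. These scores rest on members chosen with results known, and no test was made on them or between the classes.

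Relative to Csf1r in the same library, most members differed little between the groups. As a log2 ratio of FPKM values, 24 of 33 members differed between the group means by less than 0.5, and 26 varied less over the 10 libraries as a ratio than as a level. The difference of the mean log2 ratio was 0.01 for Laptm5 and for Stab1, -0.03 for Lgmn, -0.05 for Tyrobp and 0.11 for Trem2. Of the 9 members at 0.5 or beyond, Fcgr4 differed by 0.96, Fcgr1 by 0.65, Cd163 by 0.63 and Fcgr3 by 0.55, and the groups overlapped. Gpnmb (-0.71), Hmox1 (-0.70), Cd68 (-0.63) and Ctsd (-0.51) had lower ratios under the label IL6 shRNA1, also with overlap. Maf alone of the 33 had ratios that did not overlap, with a mean of -1.58 in the libraries labelled IL6 shRNA1 and -0.27 in control. The gap was narrow, with ranges of -2.04 to -1.05 and -0.98 to 0.67. Without control libraries 2 and 5, the log2 fold change of the Maf level was -0.1. The share of all genes whose ratios to Csf1r do not overlap was not computed. These ratios are a description, with no test.

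Other genes of the same pathways rose in part. Among all genes tested, 5.62% rose and 6.16% fell. Among growth factor genes and receptors, 1 of 5 tested rose: Csf2rb2, a receptor chain for IL-3 (42.6 ± 9.11 CPM against 21.7 ± 9.53 CPM, log2 fold change 0.97 ± 0.27, adjusted p = 0.0452). Il34, the second ligand of the CSF-1 receptor, was at 2.1 ± 0.737 and 1.34 ± 0.422 CPM (adjusted p = 0.197). Of 13 myeloid transcription factors 2 rose, among them Cebpa (58.6 ± 14.7 CPM against 27.1 ± 6.83 CPM, log2 fold change 1.11 ± 0.22, adjusted p = 0.0143). Pparg, a lipid-activated nuclear receptor that fat cells also express, was the 1 that fell, from 7.42 ± 2.3 CPM in control to 3.5 ± 0.307 CPM (log2 fold change -1.08 ± 0.20, adjusted p = 0.00834). The median of the 13 factors was 0.23. Pparg lies on chromosome 6, where 216 of 797 tested genes were called lower and 21 higher, and the part of the chromosome was not tested.

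Downstream of the Fc receptors, 3 of 10 genes of ITAM signalling rose and 0 fell, with 9 higher and 1 lower at an unadjusted p under 0.05 and a median of 0.89. Over all genes tested, 5.62% rose, 6.16% fell and 15.5% were higher at an unadjusted p under 0.05. Lyn, a kinase that phosphorylates the motifs, stood at 88.2 ± 15.9 CPM against 46.5 ± 14.7 CPM (log2 fold change 0.92 ± 0.22, adjusted p = 0.0265). Inpp5d, the inhibitory phosphatase SHIP1, had 73.1 ± 11 CPM against 38.4 ± 13.7 CPM (adjusted p = 0.0334), and Plcg2, a phospholipase, 34.2 ± 4.22 CPM against 18.7 ± 7.34 CPM (adjusted p = 0.0484). Inpp5d lies on chromosome 1, where 268 of 917 tested genes were called higher and 1 lower, and the part of the chromosome was not tested. Of 21 genes of lipid handling and lysosomes 5 rose and 0 fell, with a median of 0.28. Ctss, a cathepsin of antigen-presenting cells, rose from 235 ± 101 to 609.7 ± 147.5 CPM (log2 fold change 1.37 ± 0.31, adjusted p = 0.0227), and Grn, progranulin, from 407 ± 53 to 558 ± 86.3 CPM (adjusted p = 0.0337). Of the 8 called genes named for these 4 lists, Cebpa and Pparg passed without each single library. The other 6 did not pass without control library 5 (adjusted p between 0.0593 and 0.104), nor without library 5 labelled IL6 shRNA1 (adjusted p between 0.0503 and 0.1).

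Markers of other leukocytes moved with the macrophage genes in part. For reference, 5.62% of all genes tested rose, 6.16% fell and 15.5% were higher at an unadjusted p under 0.05. Of 8 monocyte markers 2 rose, Cd14 (22.3 ± 4.85 CPM against 9.95 ± 4.52 CPM) and Itgam (18.6 ± 4.89 CPM against 9.48 ± 3.48 CPM), with adjusted p of 0.0347 and 0.0429, and their summed level was 95 to 269 CPM against 43 to 193 CPM in control. Itgax, the gene of CD11c, which macrophages also express, rose among 8 dendritic cell markers (97.6 ± 29.8 CPM against 39.8 ± 15.5 CPM, adjusted p = 0.0232), whose sum was 86.2 to 178 CPM against 28.6 to 81.6 CPM. Without Itgax the other 7 dendritic cell markers summed to 11.8 to 32.4 CPM against 8.77 to 22.8 CPM, and the groups overlapped. By edgeR 0 of 3 neutrophil, 0 of 6 lymphocyte, 0 of 6 mast cell and 0 of 4 osteoclast markers tested were called, with 0, 2, 1 and 0 at an unadjusted p under 0.05. At that p, 3 of 8 monocyte and 4 of 8 dendritic cell markers were higher. Median log2 fold changes were 0.86 for monocyte, 1.16 for dendritic cell, 0.72 for lymphocyte and 0.71 for mast cell markers. They were 0.19 for neutrophil and -0.55 for osteoclast markers, against 0.88 for the macrophage members and -0.01 for all genes tested. Fold changes were positive for 8 of 8, 7 of 8, 5 of 6, 5 of 6, 2 of 3 and 0 of 4, in that order. The 3 tested neutrophil markers were present in both groups: S100a8 at 6.49 and 5.68 CPM, S100a9 at 7.9 and 6.89 CPM and Cxcr2 at 5.38 and 5.42 CPM. The 5 others of that list were too low to test, among them Ly6g, a gene that defines neutrophils, at 0.0109 CPM and 0 CPM. Retnlg was at 1.31 CPM under the label IL6 shRNA1 and 0.301 CPM in control. In the same order, Ngp was at 0.234 and 0 CPM, Camp at 0.175 and 0.0753 CPM and Mmp8 at 0.182 and 0.129 CPM. The osteoclast genes Acp5 and Ctsk had 189.6 ± 111 and 239 ± 165 CPM in libraries labelled IL6 shRNA1, 255 ± 33.1 and 343 ± 48.8 CPM in control, and were lowest in library 5 labelled IL6 shRNA1. Of 7 fibroblast markers 2 fell, Dcn from 783 ± 111 to 511 ± 94.2 CPM and Lum from 860.3 ± 122 to 440.5 ± 126 CPM (adjusted p = 0.0166 and 0.00963). The other 5 were not called, with log2 fold changes of 0.03 ± 0.27 for Rgs5, 0.15 ± 0.12 for Acta2 and -0.11 ± 0.30 for Col1a1 among them. Col1a1, a collagen chain, took 3.44% of all counts in library 1 and 3.14% in library 5 labelled IL6 shRNA1, against 1.89% to 2.37% in the other 3 of that group. In the control group it took 3.47% in library 2 and 4% in library 5, the pair lowest for most macrophage genes, against 1.74% to 2.26% in the other 3. Of 7 endothelial markers edgeR called 0, with 2 at an unadjusted p under 0.05. Without control library 5, Cd14, Itgam and Itgax did not pass (adjusted p = 0.0624, 0.0744 and 0.0629), while Dcn and Lum passed without each single library. The part of these cell types in the macrophage values was not tested.

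The calls depended on single libraries in most members. By edgeR, 5 of the 19 called members (Apoe, Ctsb, Lgmn, Stab1 and Trem2) passed in each of the 10 fits that left out a single library, with the highest adjusted p between 0.0175 for Ctsb and 0.0497 for Trem2. For the other 14 the highest adjusted p in those fits lay between 0.0601 (Csf1r) and 0.11 (Tyrobp). Among the 14 were all called general genes and all called Fc receptor and adaptor genes. Of the 5 that passed in each, Apoe, Ctsb and Stab1 are among the genes named above as also made by other cells. Members called higher numbered 5 without library 2, and 6 without library 3, 4 or 5, labelled IL6 shRNA1, and 11, 9 and 5 without control library 2, 4 and 5. They numbered 26 without library 1 labelled IL6 shRNA1. The count of members at an unadjusted p under 0.05 and higher stayed between 25 and 31 in these 10 fits, and the fold changes of the same 32 members were positive in each. Without the 3 libraries that stood apart, 1 member (Lgmn, adjusted p = 0.0327) remained called of 212 genes called in all, 32 members were still positive and the median log2 fold change was 0.56. Without control libraries 2 and 5 alone, 2 members (Lgmn and Ctsb) of 345 genes were called, and the median was 0.65.

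**Figure D5:**
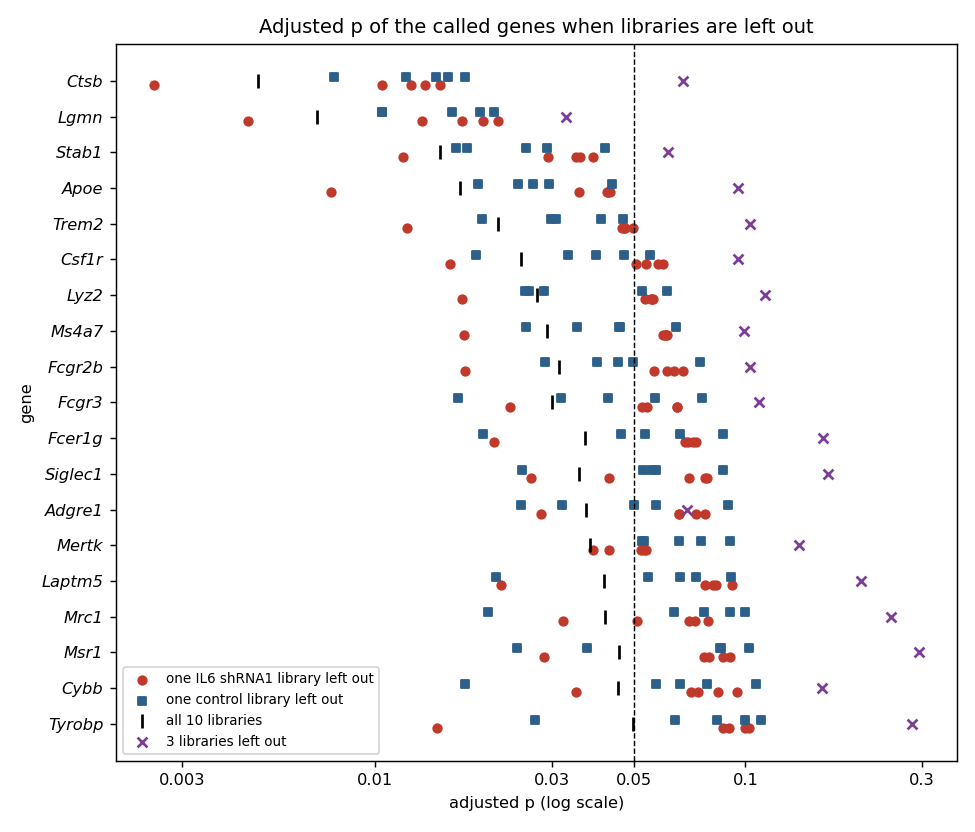
Adjusted p by edgeR (horizontal log axis, dashed line at 0.05) of the 19 called macrophage genes with all 10 libraries, with each single library left out, and without the 3 libraries that stood apart. For the upper 5 genes all circles and squares lie left of the line, and Lgmn is the only gene whose cross lies left of it.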

How the data were processed

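RNA from 10 mouse samples was sequenced, 5 labelled IL6 shRNA1 and 5 labelled control shRNA. Per the submitters' processing notes, reads were handled with STAR 2.7.0f, featureCounts of Subread 1.6.4, Trim Galore 0.6.6, FastQC 0.11.9 and R 4.0.4, on mm10 (GRCm38). How strand and multiply mapped reads were treated, and which annotation release was used, is not given in the sources used here. Raw whole-number counts deposited by the authors cover 55385 genes. The FPKM values deposited by the authors equalled count over gene length and column total to within 9.4e-07.

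Totals of 17905397 to 22682346 counts per sample set the counting precision. Counts were tested in R 4.3.3 with edgeR 4.0.16: filterByExpr by group (minimum count 10, 15064 genes), TMM, robust quasi-likelihood fit and Benjamini-Hochberg adjustment over all genes, called at an adjusted p under 0.05. The code was tested on simulated data. Alternatives were other scalings and filters, DESeq2 1.42.0, limma 3.58.1, the replicate number as a block, an adjusted p under 0.01, FPKM with pseudocounts of 1 and 0.1, and omission of each library; omission of libraries that stood apart was added after seeing the data. Members, lists and tests were chosen with earlier results of these data known. All 37 members are named, called ones and 17 set by name with every library; from each list of pathway genes the up to 3 called genes with the smallest p are named, except 2 that are not reported here, and other genes were named after their values were seen. Stretches of 50 bases shared between genes and overlapping exons were found in GENCODE M21.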

Additional observations from a re-analysis of the deposited data

Results flagged for a closer look

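In 8 of 72 groups of 5 libraries checked, a single library lay far from the other 4, and chance flags about 1 in 20 such groups. Library 1 labelled IL6 shRNA1 was low for Aif1 (19.8 CPM against 38.1 to 45 in the other 4 of its group), Ms4a6c (19 against 31.9 to 35.3), Ms4a7 (62.7 against 104 to 118) and Fcer1g (61.5 against 104 to 120). Library 5 labelled IL6 shRNA1 was high for Lyve1 (31.5 CPM against 7.92 to 11.2) and Mertk (26.3 against 15.5 to 17.7). Library 4 labelled IL6 shRNA1 was high for Cd68 (128 CPM against 95.3 to 102), and control library 2 was low for Mertk (10.1 against 12.6 to 13.4).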

How the results depend on the processing

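The count of 19 members called higher came to 16 to 20 with other scalings, a filter at 1 CPM, voom, a fit without robust estimation and FPKM values, and to 27 with DESeq2. DESeq2 called 11 of the 12 general genes and 3027 genes in all. With no filter on low counts, 4 members were called (0 general, 0 Fc receptor, 2 resident-like, 2 lipid-associated; 30 higher at an unadjusted p under 0.05), with 29762 genes tested. At an adjusted p under 0.01, 381 genes and 2 members were called, both lipid-associated, with 0 in each other class. Sample numbers did not pair the libraries: same-numbered deviations correlated at -0.282 to 0.269, and 1 of 5 numbers matched best with itself. With the number as a block, 755 genes and 3 members were called (0 general, 0 Fc receptor, 0 resident-like, 3 lipid-associated; 27 at an unadjusted p under 0.05). Leaving out a single library gave 864 to 2774 genes called in all, 5 to 26 members, 0 to 10 general, 0 to 5 Fc receptor, 1 to 5 resident-like and 4 to 6 lipid-associated genes. Without the 3 libraries that stood apart, 212 genes and 1 member (lipid-associated, 0 in each other class) were called, and without control libraries 2 and 5, 345 genes and 2 members (lipid-associated, 0 in each other class), with 22 and 25 members higher at an unadjusted p under 0.05. No setting called a member lower. Gpnmb alone changed sign: 0.22 with voom, 0.17 with the block, 0.075 and 0.17 with FPKM pseudocounts of 1 and 0.1, and -0.28 to 0.46 when a library was left out (0.46 without control library 4). Fewer samples were left in the omissions; for other changes the cause was not tested. Depth limits Cd163, Timd4, Marco and Vsig4.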
